A study of Mus musculus with 4 samples.

Results

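The SoxB genes Sox1, Sox2, Sox3, Sox14 and Sox21 and the SoxE genes Sox8, Sox9 and Sox10 were examined for H3K27me3, the repressive trimethyl mark on lysine 27 of histone H3, in erythro-myeloid progenitors (EMPs) of the mouse yolk sac (YS). The genes were chosen by name, with earlier results of these data known, as 8 of 21938 protein-coding genes of the GENCODE annotation. All peaks in each gene or within 20 kb of it were taken, which gave 80 of 10223 peaks with 500 EMPs and 33 of 15282 peaks with 15000 EMPs.

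The study profiled H3K27me3 by CUT&RUN, in which an antibody tethers a nuclease that releases the DNA around its target for sequencing. EMPs were sorted as KIT+CD41+CD16/32+ cells from YS at E10.5 of C57BL/6 embryos. The genotype label of all 4 libraries joins a floxed Ezh2 allele and a Tie2-Cre notation with the words wild type, and the study describes these cells as WT. Tie2-Cre acts in endothelium and its blood descendants, and Ezh2 is the enzyme that places the mark. H3K27me3 and IgG libraries were made from 500 EMPs and from 15000 EMPs, with 1 library in each of the 4 groups and 1 experiment for each cell number. The IgG libraries served as the background given to the peak caller and were not analysed here. With 1 library per group there was no spread between replicates, no test was possible, and every difference below is one between 2 libraries without a replicate check. The peak files hold positions only, so the depth behind a peak is unknown from them. Cell number went together with the instrument, the read length, the number of amplification cycles and the peak-calling threshold, which was stricter for 500 EMPs, and their parts in any difference cannot be told apart. The study also lists fewer reads and a lower alignment rate for 500 EMPs. The listed peak-calling commands name the library of the other cell number, and the lists were taken as labelled.

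H3K27me3 is placed by Polycomb repressive complex 2, whose catalytic subunit is Ezh2 or Ezh1, and it marks developmental regulators that a cell type keeps silent, often as broad domains over CpG-rich starts. Sox proteins bind DNA through a high-mobility-group box related to that of Sry. SoxB1 factors keep neural progenitors undifferentiated, SoxB2 factors act mainly as repressors during neural differentiation, and SoxE factors direct neural crest, glia, cartilage and testis. These programmes belong to tissues other than blood.

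The DNA just before the starts shows where the peaks began and ended. RefSeq promoters on GRCm38.p6 matched 5 of the 8 genes, Sox1, Sox2, Sox14, Sox21 and Sox8, and did not match Sox3, Sox9 and Sox10. The 250 bases before the RefSeq start are printed for 4 of them, 5′ to 3′ on the gene's strand, with the bases that lay under a 15000-EMP peak in capitals. Sox2 (chr3:34649745-34649994, plus strand) and Sox21 (chr14:118237031-118237280, minus strand) show promoters that were fully under a peak, Sox14 (chr9:99876171-99876420, minus strand) one in which a peak ended, and Sox8 (chr17:25570687-25570936, minus strand) one that was free of peaks.
Sox2: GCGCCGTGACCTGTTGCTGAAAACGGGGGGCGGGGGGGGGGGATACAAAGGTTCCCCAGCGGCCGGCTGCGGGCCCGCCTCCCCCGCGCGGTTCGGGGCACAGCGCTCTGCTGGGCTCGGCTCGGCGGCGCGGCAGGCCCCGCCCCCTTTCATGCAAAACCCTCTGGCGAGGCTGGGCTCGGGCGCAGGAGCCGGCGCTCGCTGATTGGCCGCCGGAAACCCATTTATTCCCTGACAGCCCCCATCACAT
Sox21: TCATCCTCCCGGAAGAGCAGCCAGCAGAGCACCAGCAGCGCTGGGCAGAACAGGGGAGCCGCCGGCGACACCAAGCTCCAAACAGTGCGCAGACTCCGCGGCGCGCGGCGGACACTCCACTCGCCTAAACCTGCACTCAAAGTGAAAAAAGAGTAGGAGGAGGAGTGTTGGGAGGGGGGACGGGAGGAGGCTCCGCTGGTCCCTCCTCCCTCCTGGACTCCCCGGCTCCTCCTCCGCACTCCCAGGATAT
Sox14: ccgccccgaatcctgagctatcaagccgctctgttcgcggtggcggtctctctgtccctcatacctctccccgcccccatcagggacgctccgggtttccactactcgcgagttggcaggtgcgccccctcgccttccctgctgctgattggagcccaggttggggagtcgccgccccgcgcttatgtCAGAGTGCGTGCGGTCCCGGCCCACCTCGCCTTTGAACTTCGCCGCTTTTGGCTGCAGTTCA
Sox8: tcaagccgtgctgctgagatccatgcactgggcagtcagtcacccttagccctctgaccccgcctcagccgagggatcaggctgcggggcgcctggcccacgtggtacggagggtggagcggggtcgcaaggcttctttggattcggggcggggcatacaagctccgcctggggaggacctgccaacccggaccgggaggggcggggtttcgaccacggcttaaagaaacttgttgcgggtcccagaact
In Sox14 the last 62 of the 250 bases were under the peak, which ran on over the gene. In Sox1 the count was 114 of 250 bases. With 500 EMPs, 0 of the 250 bases were under a peak in each of the 5 genes.

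All 5 sequences were rich in CpG. They held 29 CG dinucleotides in Sox1, 27 in Sox2, 23 in Sox14, 18 in Sox8 and 17 in Sox21, against a median of 6 over 32851 promoters of the same length. At least as many were held by 6.78% of promoters for Sox1 and by 23.5% for Sox21, so these counts were high but shared with many genes. Sox8, which was free of peaks here, held 1 CG more than Sox21, which was fully covered. The Sox-type motifs ACAAAG and ACAATG, read on both strands, occurred in 1 of the 5, Sox2, and in 25.2% of all promoters.

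All 8 starts had an H3K27me3 peak no more than 3 kb away with 15000 EMPs, and 7 of 8 had one with 500 EMPs, the exception being Sox8. Over all protein-coding genes these shares were 17.0% with 15000 EMPs and 9.92% with 500 EMPs. When the search took in the gene body and 20 kb on each side, all 8 genes had a peak in both libraries, against 30.1% of genes with 15000 EMPs and 18.6% with 500 EMPs. The libraries differed in whether a peak lay over the start itself. With 15000 EMPs a peak lay across the start of 5 of 8 genes, Sox1, Sox2, Sox14, Sox21 and Sox9, against 8.63% of genes. With 500 EMPs this held for 0 of 8, against 1.40% of genes. Among genes with such a nearby peak, 50.8% also had one across the start with 15000 EMPs and 14.1% with 500 EMPs.

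**Figure D1:**
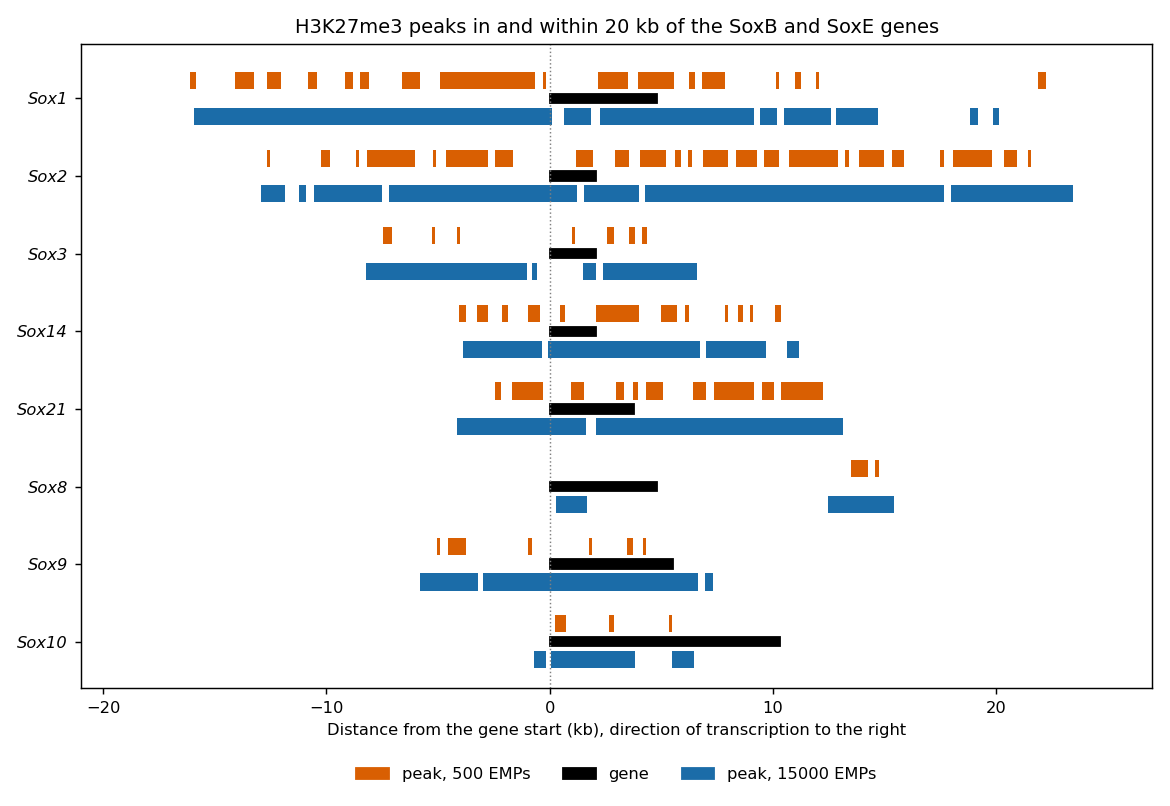
Peaks of 500 EMPs (orange) and 15000 EMPs (blue) in and within 20 kb of the 8 genes (black), plotted by distance from the gene start in kb, with transcription to the right. The 80 narrow peaks of 500 EMPs lie beside the starts and cross none, and at Sox8 and Sox10 they lie only after it. The 33 wider peaks of 15000 EMPs run across the starts of 5 genes.

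As called, the 15000-EMP library held fewer and wider peaks at these genes. When peaks within 3 kb of each other were joined, both libraries held 10 peaks, and 5 genes had one across the start with 500 EMPs. Median peak width at these genes was 2583 bp with 15000 EMPs and 370 bp with 500 EMPs. Here 10 peaks against 0 were wider than 5 kb. Over all peaks of each library the median width was 770 bp with 15000 EMPs and 363 bp with 500 EMPs. Wider peaks with 15000 EMPs were therefore not particular to these genes, and their 500-EMP median was close to that of the library. Of the 355483 bp searched at these genes, peaks covered 127108 bp with 15000 EMPs and 50423 bp with 500 EMPs, or 35.8% and 14.2%. With peaks joined within 3 kb these lengths were 138689 bp and 114539 bp, so the difference in covered length depended largely on joining. The narrow peaks mostly overlapped the wide ones: 76 of 80 peaks of 500 EMPs overlapped a peak of 15000 EMPs by at least 1 bp (95%, with a 95% Wilson interval 87.8 to 98.0%, counting error only, with neighbouring peaks taken as independent). In the other direction it was 21 of 33 peaks (63.6%, 46.6 to 77.8%). These shares were not computed over all peaks of the libraries, so they cannot be called particular to the Sox genes. A single 15000-EMP peak downstream of Sox2 overlapped 11 peaks of the 500-EMP library.

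Among the SoxB1 genes, which mark and maintain neural progenitors, Sox1 and Sox2 lay in the broadest domains. Sox1 (chr8:12395295-12400126, plus strand, a single exon) had 17 peaks with 500 EMPs and 8 with 15000 EMPs. These covered 13285 bp and 29481 bp of the gene and its flanks. The domain lay mostly upstream, where 79.7% of the 20 kb before the gene was covered with 15000 EMPs and 40.7% with 500 EMPs. The widest peak of any of the genes, 16027 bp, reached from 15939 bp before the start of Sox1 to 87 bp after it and overlapped 9 peaks of 500 EMPs. The call across the start of Sox1 rests on these last bases: the RefSeq start lies 224 bp further in, and no peak crossed it.

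Sox2 (chr3:34650405-34652461, plus strand, a single exon inside the long non-coding Sox2ot), a factor of pluripotent cells and neural progenitors, had 23 peaks with 500 EMPs and 7 with 15000 EMPs, covering 18132 bp and 32825 bp. Here coverage was higher after the gene than before it, 97.0% against 58.3% of 20 kb with 15000 EMPs. The same order was seen with 500 EMPs, 58.4% against 28.3%. The whole coding sequence of 957 bp lay under peaks with 15000 EMPs and 0 bp of it with 500 EMPs, where the nearest peak was 1164 bp from the start.

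Sox3 (chrX:60891366-60893430, minus strand, a single exon), the X-linked SoxB1 gene, differed from its relatives. It had 7 peaks with 500 EMPs and 4 with 15000 EMPs, covering 1635 bp and 12181 bp. With 15000 EMPs the peaks covered 27.8% of the gene, at its 3′ end, and left an uncovered stretch of 2063 bp, which held the start and all 1350 bp of coding sequence. The 500-EMP library had a peak inside this stretch, 137 bp wide, which lay wholly in coding sequence and overlapped no 15000-EMP peak.

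The SoxB2 genes, repressors expressed in developing neurons, had close values near the start in both libraries, 37.0% and 38.4% of the 3 kb on each side with 500 EMPs and 95.2% and 93.0% with 15000 EMPs for Sox14 and Sox21. Sox14 (chr9:99874106-99876170, minus strand, a single exon) had 12 peaks with 500 EMPs and 4 with 15000 EMPs, which covered 5531 bp and 13586 bp. With 15000 EMPs the gene was covered in full by a peak of 6807 bp, whereas with 500 EMPs 11.7% of it was covered. The nearest 500-EMP peaks left 879 bp around the start uncovered.

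Sox21 (chr14:118233232-118237030, minus strand, a single exon) had 10 peaks with 500 EMPs and 2 with 15000 EMPs, which covered 8430 bp and 16893 bp. Both 15000-EMP peaks were wide, 5803 bp and 11090 bp, and all 8430 bp of the 500-EMP peaks lay within them. They were separated by 422 bp, from 1647 to 2068 bp after the start, and all of this gap was coding sequence. Gm4675, a long non-coding RNA gene on the other strand, overlaps the start of Sox21, so peaks here cannot be assigned to either gene alone.

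The SoxE genes had a smaller percentage of the wider window covered than the SoxB genes. Sox8 (chr17:25565892-25570686, minus strand, 3 exons), which acts beside Sox9 and Sox10 in neural crest and testis, had the lowest coverage of the 8 with 15000 EMPs. It had 2 peaks in each library, covering 906 bp with 500 EMPs and 4358 bp with 15000 EMPs. Both 500-EMP peaks lay more than 13 kb after the start and beyond the gene, the nearer at 13519 bp. All 906 bp of them lay in AC131323.3, a neighbouring long non-coding RNA gene, as did the 2977 bp of the downstream 15000-EMP peak. The 15000-EMP library had 1 peak in Sox8 itself, of 1381 bp, from 300 to 1680 bp after the start (chr17:25569006-25570386), and it overlapped 0 peaks of 500 EMPs.

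Sox9 (chr11:112782224-112787760, plus strand, 3 exons), required for cartilage and testis formation, had the largest ratio of covered length between the libraries as called. Sox3 was close behind, and near the start their order depended on how peaks were joined. With 500 EMPs Sox9 had 6 peaks covering 1645 bp, and with 15000 EMPs 3 peaks covering 12560 bp. A 15000-EMP peak of 9637 bp covered the whole gene. It overlapped 4 of the 500-EMP peaks, which made up 7.58% of its length.

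Sox10 (chr15:79154908-79165240, minus strand, 5 exons), a factor of neural crest, melanocytes and myelinating glia, had 3 peaks in each library, covering 859 bp with 500 EMPs and 5224 bp with 15000 EMPs. All 3 peaks of 500 EMPs and 2 of the 15000-EMP peaks lay inside the gene. The third 15000-EMP peak ended 177 bp before the start, so that 238 bp around the start stayed uncovered. RefSeq places the start of Sox10 750 bp further in, and a 15000-EMP peak crossed that position. The flanking protein-coding genes Polr2f, Micall1 and 1700088E04Rik, like Lmf1 beside Sox8, had 0 covered bp in both libraries.

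The 6001 bp from 3 kb before to 3 kb after each start gave an order of coverage in each library. With 15000 EMPs it ran from Sox9 (99.6%), Sox14 (95.2%), Sox2 (95.2%), Sox21 (93.0%) and Sox1 (84.0%) to Sox10 (57.3%), Sox3 (56.0%) and Sox8 (23.0%). With 500 EMPs it ran from Sox1 (55.6%), Sox21 (38.4%), Sox14 (37.0%) and Sox2 (31.2%) to Sox10 (12.0%), Sox3 (7.18%), Sox9 (5.03%) and Sox8 (0%). Sox8 was lowest and Sox10 and Sox3 were next to each other in both orders, and Sox9 was the gene that changed place most. The place of Sox9 depended on how peaks were joined: its coverage with 500 EMPs was 302 bp as called and all 6001 bp when peaks within 3 kb of each other were joined. Since each value is from 1 library, no neighbours in either order can be said to differ. The median over the 8 genes was 88.5% with 15000 EMPs and 21.6% with 500 EMPs. Over all genes it was 0% in both, and over genes with a peak within 3 kb it was 45.7% and 13.2%.

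**Figure D2:**
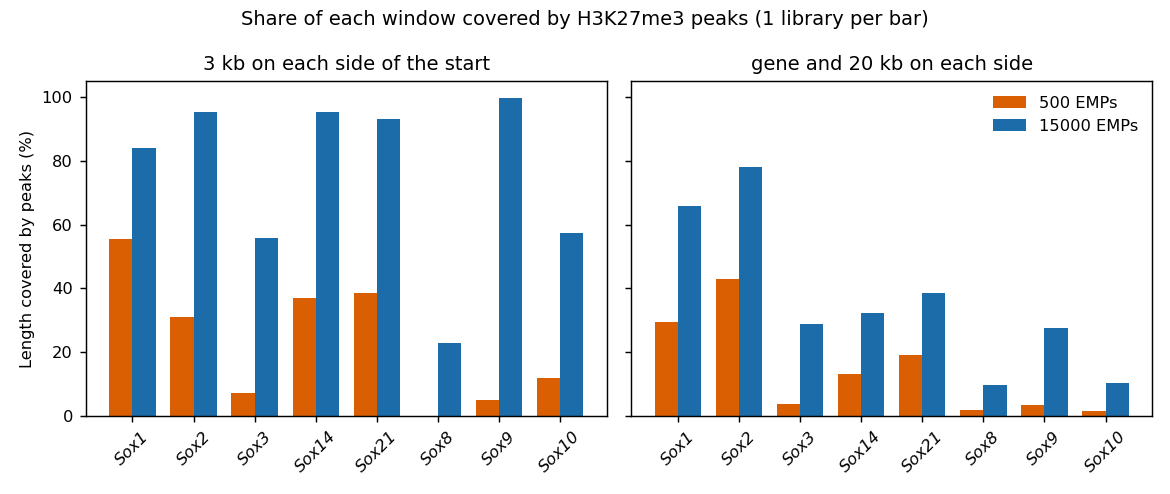
Percent of each gene's window covered by H3K27me3 peaks with 500 EMPs (orange) and 15000 EMPs (blue), 1 library per bar and so without error bars, for 3 kb on each side of the start (left) and for the gene with 20 kb on each side (right). As called, Sox9 is at 5.03% with 500 EMPs and 99.6% with 15000 EMPs on the left, a difference that is lost when peaks within 3 kb are joined, and Sox1 and Sox2 are highest on the right in both libraries.

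As called, coverage was larger with 15000 EMPs at every gene, but by unequal factors, which rest on peaks called separately in each library and on the joining described above. In the gene and its 20-kb flanks, covered length was 1.81 times as large at Sox2, 2.0 times at Sox21, 2.22 times at Sox1 and 2.46 times at Sox14. It was 4.81 times as large at Sox8, 6.08 times at Sox10, 7.45 times at Sox3 and 7.63 times at Sox9. The 4 genes with the smaller factors were those with the most covered length in the 500-EMP library. Each factor divides by that length, so this order follows in part from how the factor is computed. Within 3 kb of the start the factor was 19.8 at Sox9 and 1.51 at Sox1 as called, but with peaks joined within 3 kb both genes were covered over all 6001 bp in both libraries.

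Over the wider window the SoxB genes had more of their length covered than the SoxE genes. With 15000 EMPs the 5 SoxB genes ranged from 29.0% to 78.1% (median 38.6%) and the 3 SoxE genes from 9.73% to 27.6% (median 10.4%). With 500 EMPs the ranges were 3.89% to 43.1% and 1.71% to 3.61%. As percentages the ranges of the subgroups did not overlap in either library, but in covered length Sox9 was above Sox3 in both, with 12560 bp against 12181 bp and 1645 bp against 1635 bp, and genes are not replicates of a subgroup. Within 3 kb of the start the ranges overlapped in both libraries, 56.0% to 95.2% against 23.0% to 99.6% with 15000 EMPs and 7.18% to 55.6% against 0% to 12.0% with 500 EMPs. Ordered by covered length within 20 kb of the start among all 21938 genes, Sox2 was at place 50 and Sox1 at place 64 with 15000 EMPs, and at places 51 and 100 with 500 EMPs. Sox8 was at place 1929 and 1562, and Sox10 at place 1543 and 1609.

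Averaged over the 8 genes in bins of 500 bp, coverage was lower at the start than beside it. With 15000 EMPs it was 63.5% in the bin before the start and 68.2% in the bin after it, and 87.5% between 2500 and 3499 bp after the start. With 500 EMPs it was 10.4% before and 7.5% after the start, and 46.9% from 3000 to 3499 bp. Here the 8 genes lay below all genes with a peak within 3 kb in each bin from -500 to 2499 bp, with 19.2% and 13.4% for those genes in the bins before and after the start. The 8 include Sox8, which had no 500-EMP peak within 3 kb. With peaks joined within 3 kb, a 500-EMP peak lay across the start of 5 of the 8, and the averages were not computed for joined peaks. Genes with a peak within 3 kb, chosen by their peaks, also had a lower value at the start, but their coverage fell faster with distance, to 31.1% and 14.1% at 3000 to 3499 bp.

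**Figure D3:**
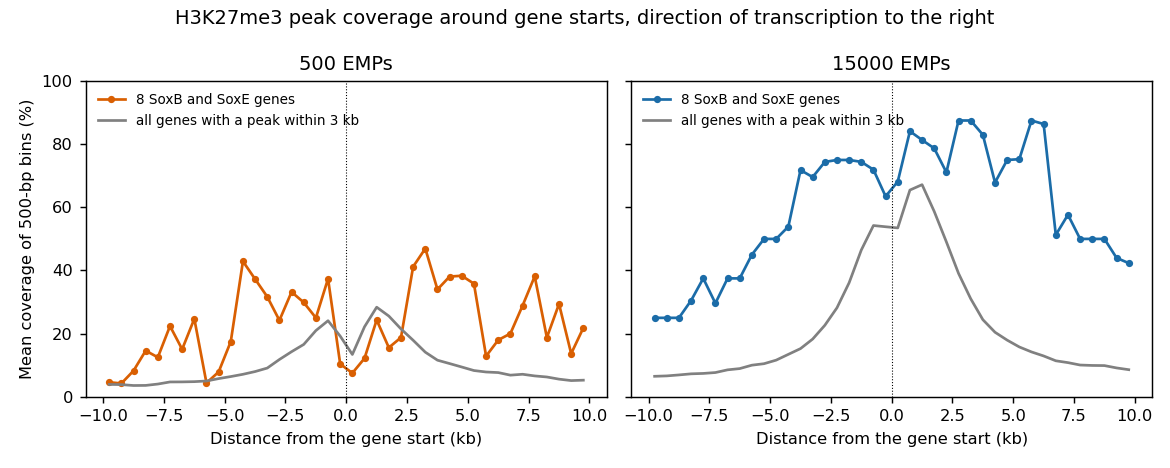
Mean percent of each 500-bp bin covered by peaks against distance from the gene start in kb, for the 8 genes (coloured, points) and for all genes with a peak within 3 kb (grey), with 500 EMPs on the left and 15000 EMPs on the right. For peaks as called, the coloured lines dip at the start, to 7.5% and 63.5%. The line for 500 EMPs is below the grey line there, and both are above the grey lines at 3 kb on either side.

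The gaps between neighbouring 15000-EMP peaks of a gene were short. There were 25 of them, with a median of 321 bp, and 21 were under 1 kb. In 4 gaps the DNA had a GC content of 69.6 to 77.0% and 9.12 to 16.6 CG per 100 bases, and in the other 21 it was 33.2 to 60.2% and 0 to 6.67 CG per 100 bases; this division at 65% was made after the values were seen and was not tested. The 4 were the stretch over Sox3 (69.6% GC), the gap over Sox21 coding sequence (76.8%) and the gaps from 88 to 635 bp (71.2%) and from 1850 to 2262 bp (77.0%) after the Sox1 start. The last of these held 389 bp of coding sequence. The part of read alignment or amplification in these gaps was not tested. Over the whole windows the order was the other way: DNA under 15000-EMP peaks had more CG per 100 bases than the rest in all 8 genes, 2.03 to 3.23 against 0.892 to 1.64.

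The study's own annotation paired each peak with nearby genes, and the symbols there gave a partly different account of the family. In each library 7 of the 8 symbols were listed, against 20.7% of genes with 15000 EMPs and 12.3% with 500 EMPs. Sox8 was listed in neither. Its 15000-EMP peak inside the gene was paired with Cerox1 alone, a non-coding gene on the other strand that overlaps the Sox8 start. At Sox21, 8 of 10 peaks of 500 EMPs and 1 of 2 peaks of 15000 EMPs were paired with Gm4675 alone, 4 of these 9 overlapping Sox21 itself. In all, 54 of the 80 peaks and 26 of the 33 peaks carried the symbol of the Sox gene they lay near, and others near Sox1, Sox2, Sox3 and Sox9 carried the non-coding Sox1ot and Mir1897, Gm38438 and BC006965.

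The other 12 Sox genes gave a mixed picture. A peak within 3 kb of the start was present for 7 of 12 with 15000 EMPs and 4 of 12 with 500 EMPs, and a peak lay across the start of 3 and 1. The SoxF genes, regulators of endothelium, all had a peak within 3 kb with 15000 EMPs. Coverage was then 100% at Sox17, 95.2% at Sox7 and 46.5% at Sox18, where no peak crossed the start. Sox4, Sox12, Sox13 and Sox15 had no peak within 3 kb in either library, nor had Sry, but both lists held 0 peaks on all of chromosome Y, so its value is not particular to it. Sox4 and Sox12 are of the SoxC subgroup, whose other member Sox11 was covered by 72.2% with 15000 EMPs.

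**Figure D4:**
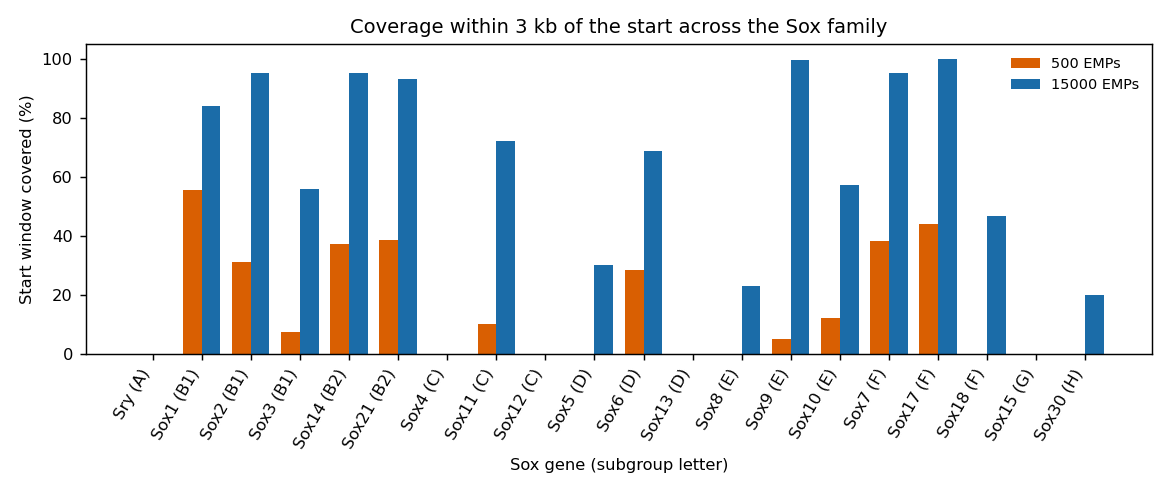
Percent of the 6001 bp around the start covered by H3K27me3 peaks for all 20 Sox genes, ordered by subgroup letter, with 500 EMPs (orange) and 15000 EMPs (blue), 1 library per bar and so without error bars. All SoxB, SoxE and SoxF genes have a bar with 15000 EMPs, and Sox4, Sox12, Sox13, Sox15 and Sry have none in either library, with 0 peaks on all of chromosome Y, where Sry lies.

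Genes that work with these factors in the tissues they build were often marked too. With 15000 EMPs a peak lay within 3 kb of the start of 11 of 12 neural and pluripotency partners of the SoxB factors, against 17.0% of all genes, with Six3 and Lhx2 covered over all 6001 bp, Otx2 over 5599 bp and Pax6 over 5175 bp, and Hesx1 the one without. Of 10 neural crest specifiers all 10 had a peak, led by Pax3 with 6001 bp, Msx2 with 5753 bp, Pax7 with 5719 bp and Tfap2a with 5625 bp. Of 8 testis genes 7 had one, led by Wt1 with 6001 bp and Dmrt1 with 5718 bp, and Ptgds had none. With 500 EMPs the counts were 9 of 12, 9 of 10 and 6 of 8, against 9.92% of all genes. The lists were chosen with earlier results of these data known, so these contrasts with all genes are descriptive and were not tested.

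Differentiation genes downstream of the SoxE factors were marked less evenly. Of 9 cartilage genes 6 had a peak with 15000 EMPs and 4 with 500 EMPs, with 5729 bp covered at Acan and 5720 bp at Col2a1, the main proteoglycan and collagen of cartilage, and none at Col9a1, Matn1 and Hapln1. Among the glial, melanocyte and enteric genes reported here, Ret (5177 bp), Egr2 (3544 bp) and Erbb3 (3007 bp) were covered with 15000 EMPs. With 500 EMPs the lengths were 4027 bp at Ret, 0 bp at Egr2 and 634 bp at Erbb3. The myelin gene Mbp, the pigment genes Mitf and Dct, and Ednrb had no peak within 3 kb in either library. Of 11 genes of the sort gate and of EMP identity, among them Kit, Itga2b, Runx1 and Gata1, 0 had a peak within 3 kb in either library, which with so few genes is near the shares over all genes of 17.0% and 9.92%.

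The 5 genes whose start windows were nearest to the median of the 8 in both libraries were Yap1, Kbtbd11, Agpat3, Nefl and Adcy1. Their distance from the median, taken over the percent covered in the 2 libraries together, was 0.436 to 1.70 percentage points.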

How the data were processed

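H3K27me3 CUT&RUN of EMPs was analysed from 2 of the 4 libraries. The authors aligned reads to mm10 (GRCm38) with Bowtie2 2.2.1, called broad peaks per library with MACS2 2.1.2 against the IgG library, and annotated them in R. SAMtools 1.9 and deepTools 3.5.1 are also named in the submitters' processing notes. The peak files used here give peak positions, paired gene symbols and distances in bp, with no score, count or p-value. A peak therefore counts as present or absent, and depth is unknown from them. The study states that BigWig files can also be downloaded, and these were not used.

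Positions were made 1-based and joined to GENCODE vM21 with Python 3.11.15, pandas 2.3.3 and pysam 0.24.0. Covered length counts each base under a peak once. The overlap minimum was 1 bp. The counting of peaks and covered bases was tested on simulated data. Groups came from the labels. The members and gene lists were chosen with earlier results of these data known. All 8 members are named, of the other lists the up to 4 genes with most covered length and those without a peak, and the 5 nearest genes by coverage. Alternatives were other distances, joining of peaks, width and overlap minimums, and the RefSeq start. Some genes of these lists are not reported here.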

Additional observations from a re-analysis of the deposited data

How the results depend on the processing

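Most values changed little: of 49 alternatives for 9 group values, 41 stayed within 1.5 times the value or its interval and 8 did not. Joining peaks less than 1 kb apart left 32 and 12 peaks with 500 and 15000 EMPs, and joining at 3 kb left 10 and 10. With 500 EMPs a peak then lay across the start of 1 gene at 1 kb and 5 genes at 3 kb in place of 0, and covered length at 3 kb was 114539 bp. When overlap had to reach 50% of both peaks, 0% of 500-EMP peaks overlapped, since the peaks differ in width. For single genes, 10 of 64 alternatives moved the covered length, all by joining peaks, among them Sox9 with 500 EMPs, from 302 to 6001 bp. The RefSeq start and the alternatives for single genes were added after seeing the data. No paired analysis was possible because each group has 1 library, and for the same reason no library could be left out. Depth is unknown from the peak files used, so a missing peak does not show that the mark is absent.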
